A study of Mus musculus with 8 samples.

Results

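Transcripts of the cholesterol and fatty acid synthesis pathway were followed in mouse macrophages before and after lipopolysaccharide (LPS). The module holds 33 genes, taken by symbol from a list of genes of the SREBP (sterol regulatory element-binding protein) pathway, out of 43346 genes in the count table. All 33 were found, all passed the filter on low counts, and each had at least 18 reads in every library. By role they comprised 8 mevalonate and isoprenoid steps, 10 sterol steps from squalene to cholesterol, 6 genes of SREBP control and sterol transport, 3 genes of fatty acid synthesis, and 6 desaturases and elongases.

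SREBP proteins are made in the membrane of the endoplasmic reticulum and are escorted to the Golgi by SCAP when sterols are scarce, where they are cut and released to the nucleus to switch on the synthesis genes. When sterols are plentiful, INSIG proteins hold SCAP and SREBP back. SREBP-2, the product of Srebf2, acts chiefly on cholesterol genes and SREBP-1, the product of Srebf1, chiefly on fatty acid genes, and in macrophages the same lipids feed membranes, efflux and inflammatory signalling.

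Polyadenylated RNA was sequenced in 8 libraries of 6 groups, each of 3 mouse macrophage types being sampled unstimulated (0 h, called rest here) and 3 h after LPS. Bone marrow-derived macrophages (BMDM), differentiated in medium conditioned by L929 cells, had 2 libraries per state. The macrophage-like tumour line RAW 264.7 (RAW), grown in DMEM with serum, and the cell type labelled hMPDM had 1 library per state. The labels name no genotype, strain or age, and neither the dose of LPS nor what hMPDM stands for is stated in them. They do not say whether the BMDM pairs came from separate cultures either. A p-value here therefore reflects the spread between these libraries alone, which may be technical.

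Library totals ran from 3116434 counts (RAW at rest) to 19307312 (BMDM rest replicate 2), and a count of 0 allowed at most 0.963 and 0.155 CPM (counts scaled to a fixed library total) in them. The 8 macrophage markers had reads in every library, with a summed level of 14426 to 19109 CPM. All 5 adipocyte markers and all 3 T cell markers were at 0 throughout, the 5 fibroblast markers summed to at most 0.453 CPM, and the 6 neutrophil markers to 4.28 to 76.8 CPM, highest in BMDM after LPS. The part of these cells in the results was not tested, and in bulk RNA fewer cells of a type and less RNA per cell cannot be told apart. In the hMPDM LPS library, 15 genes of at least 5 CPM in BMDM, chosen for a resting hMPDM level of at most 5% of that in BMDM, summed to 10.7% of the BMDM LPS level. The choice fixed their low resting level, so the sum does not show that this library differs in kind, and whether it holds reads from BMDM was not tested. As an alternative, this share of the BMDM LPS level was subtracted from its counts, and its effect on the members named there is given with the hMPDM responses.

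The promoters of the module were read from RefSeq windows reaching from 250 bases before to 50 bases after each annotated start (GRCm38.p6, the mm10 assembly), which were on hand for 26 of the 33 members. The NF-Y box CCAAT lay on either strand in a window of 80.8% of these members, against 41.1% of all 27025 genes in the table of windows. The Sp1 box GGGCGG was in 80.8% and 38.2%, and the E-box CACGTG in 23.1% and 8.09%. The sterol regulatory element core TCACNCCAC was found in 1 member, Hmgcs1, against 1.44% of all genes. NF-Y and Sp1 are cofactors of SREBP at many of its targets. A match is a description of letters and not a bound site. The 250 bases before the start are printed below for Hmgcs1 and Insig1, classical SREBP targets, and for Fasn and Elovl6, which had falls among the largest of the module after LPS, with the sterol regulatory element core and the NF-Y box (CCAAT, or ATTGG where it lies on the opposite strand) in capitals.

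Hmgcs1 (chr13:119690101-119690350, plus strand): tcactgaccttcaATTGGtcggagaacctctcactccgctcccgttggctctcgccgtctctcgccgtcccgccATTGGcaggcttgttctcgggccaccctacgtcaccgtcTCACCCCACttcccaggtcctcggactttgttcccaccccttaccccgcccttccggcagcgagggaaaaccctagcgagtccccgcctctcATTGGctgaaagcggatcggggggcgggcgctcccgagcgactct
Insig1 (chr5:28071162-28071411, plus strand): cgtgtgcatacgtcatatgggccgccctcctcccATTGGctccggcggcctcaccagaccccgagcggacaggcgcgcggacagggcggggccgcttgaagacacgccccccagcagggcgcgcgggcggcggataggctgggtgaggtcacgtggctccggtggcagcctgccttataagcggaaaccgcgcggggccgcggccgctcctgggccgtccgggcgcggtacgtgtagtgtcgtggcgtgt
Fasn (chr11:120824548-120824797, minus strand): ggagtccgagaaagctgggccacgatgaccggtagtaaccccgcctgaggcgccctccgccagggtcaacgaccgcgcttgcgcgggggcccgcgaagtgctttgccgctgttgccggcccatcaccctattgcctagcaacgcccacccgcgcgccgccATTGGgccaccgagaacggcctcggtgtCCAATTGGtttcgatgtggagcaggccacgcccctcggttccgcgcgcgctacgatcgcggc
Elovl6 (chr3:129532136-129532385, plus strand): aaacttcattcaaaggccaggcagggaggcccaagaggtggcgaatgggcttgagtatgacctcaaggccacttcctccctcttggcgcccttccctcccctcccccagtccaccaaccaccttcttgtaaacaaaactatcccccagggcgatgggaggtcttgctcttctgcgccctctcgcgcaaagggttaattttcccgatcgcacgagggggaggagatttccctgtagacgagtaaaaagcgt

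The Hmgcs1 stretch held the sterol element core at bases -137 to -129 from the start, with 2 NF-Y boxes before it and 1 after, and Insig1 had a single NF-Y box. In Fasn 3 NF-Y boxes were present, the last 2 on opposite strands and overlapping. Elovl6 had none of the motifs in its window.

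At rest the module was dominated by Scd2, a stearoyl-CoA desaturase that makes oleic from stearic acid. Per kilobase of exon, Scd2 was the most abundant member at rest in all 3 types, at 152 CPM per kb in BMDM (SD 7.35, n = 2), 558 in hMPDM and 247 in RAW. In resting BMDM the cholesterol genes Hmgcs1 (97.1 CPM per kb, SD 3.06) and Insig1 (77.0, SD 3.25) came next, followed by Acly (67.5, SD 2.34) and Fdps (63.3, SD 3.40). The last pair lay within about their spread of each other. The lowest member was the isoprenoid isomerase gene Idi1 at 0.588 CPM per kb in BMDM, just below the acetyl-CoA carboxylase gene Acaca at 1.74. After LPS Hmgcs1 led the BMDM order at 123 CPM per kb and Scd2 stood sixth at 54.2, whereas Scd2 still led in hMPDM (286) and RAW (208).

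After 3 h of LPS, most genes that make and modify fatty acids and most sterol steps were lower in BMDM, while Hmgcs1, Idi1, Srebf2, Scap and Insig2 rose. Of the 33 members, 20 fell and 5 rose in edgeR's quasi-likelihood test (Benjamini-Hochberg adjusted p under 0.05), where 31.1% and 31.7% of the 12461 genes tested fell and rose. The median log2 change was -0.22, against -0.02 over all genes. In a test against a 2-fold change, Scd2 and Elovl6 passed as lower, a call that 4.21% of all genes reached, while 8.27% reached it as higher. Levels here are CPM scaled by TMM, which holds the bulk of genes level between libraries. Scaling by library size alone moved all BMDM LPS values by -0.37, which gave 28 members lower and 3 higher, against 7616 and 1997 of all genes.

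The 6 desaturases and elongases all fell in BMDM, with a median log2 change of -0.73. Scd2 (ENSMUSG00000025203.5, chr19:44293676-44306864) stood at 855 and 798 CPM in the resting BMDM libraries and at 285 and 306 CPM after LPS, at 3045 and then 1561 CPM in hMPDM, and at 1348 and then 1134 CPM in RAW. The BMDM groups did not overlap, and resting hMPDM was the highest of all 8 libraries. Its fitted level in BMDM was 0.360 times that at rest (log2 -1.48, SE 0.0418, edgeR adjusted p = 2.25e-23). Elovl6 (ENSMUSG00000041220.6, chr3:129532386-129638495), the elongase that extends palmitate to stearate, was at 40.9 CPM in both resting BMDM libraries and at 15.9 and 14.3 CPM after LPS, while hMPDM went from 83.1 to 27.1 CPM and RAW from 64.9 to 56.5 CPM. Every LPS library lay below the resting library of its type, although in RAW the 95% counting interval of the ratio, 0.729 to 1.04, spanned 1. The BMDM change was -1.46 (SE 0.0864, edgeR adjusted p = 2.94e-15). Scd1 (ENSMUSG00000037071.2, chr19:44394451-44407709), the second stearoyl-CoA desaturase of these cells, was low in BMDM at 15.3 and 14.9 CPM before and 7.56 and 9.25 CPM after LPS, and far higher in hMPDM (164 and then 123 CPM) and RAW (81.1 and then 67.4 CPM). It fell by 0.80 on the log2 scale in BMDM (SE 0.121, edgeR adjusted p = 1.28e-06). The fatty acid desaturase genes Fads1 (-0.66) and Fads2 (-0.42), which act on polyunsaturated fatty acids, and the elongase gene Elovl5 (-0.29) fell less. The call of Elovl5 was lost when the coefficient of variation was fixed at 10% (adjusted p = 0.126).

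The summed level of the 6 genes was 1282 and 1225 CPM in resting BMDM, then 582 and 595 CPM after LPS, a ratio of 0.470. In hMPDM the sum went from 4001 to 2262 CPM (0.565), and in RAW from 2172 to 1885 CPM (0.868). Over all 33 members the ratios were 0.791, 0.804 and 1.05. At rest Scd2 alone made up most of the 6-gene sum in every type. The fall of Scd2 also made up most of the net fall over all members in BMDM and hMPDM.

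**Figure D1:**
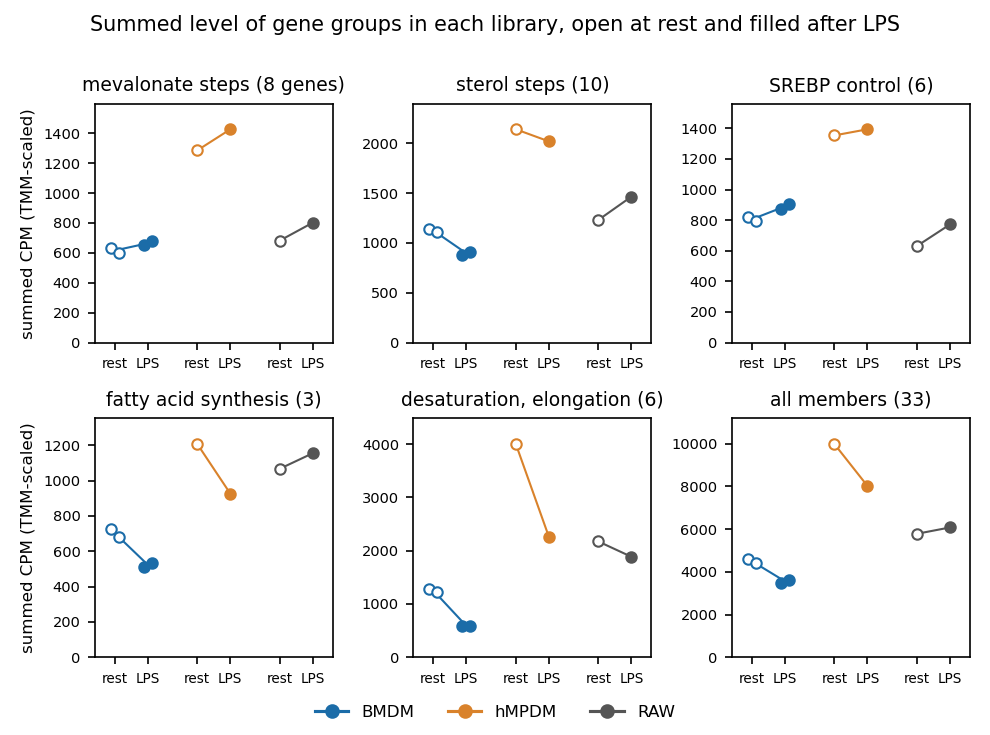
Summed TMM-scaled CPM of the 5 role groups and of all 33 members (vertical axes, each from 0) in each of the 8 libraries, open circles at rest and filled after 3 h of LPS, with lines joining the means of each cell type. The desaturation and elongation sum dropped from 1282 and 1225 to 582 and 595 CPM in BMDM and from 4001 to 2262 CPM in hMPDM. Under this scaling the mevalonate sum did not fall in any type (ratios 1.08 in BMDM, 1.11 in hMPDM and 1.18 in RAW). Of its 8 genes 3 were called lower in BMDM. In BMDM Hmgcs1 made up most of the mevalonate sum, and the other genes together were lower after LPS. Library size scaling moved LPS log2 ratios by -0.37 in BMDM and -0.39 in hMPDM, more than those rises.

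Of the 3 fatty acid synthesis genes, Fasn and Acaca fell in BMDM. Fasn (ENSMUSG00000025153.8, chr11:120805940-120824178), the multi-enzyme fatty acid synthase, read 335 and 306 CPM before and 153 and 172 CPM after LPS in BMDM, 661 and then 403 CPM in hMPDM, and 639 and then 720 CPM in RAW. The BMDM groups were apart, hMPDM was lower after LPS and RAW was higher. In BMDM Fasn changed by -0.97 (SE 0.0490, edgeR adjusted p = 6.51e-17). Acaca, whose product makes malonyl-CoA, changed by -0.48 (edgeR adjusted p = 3.84e-05), a call that DESeq2 did not make (adjusted p = 0.0639). ATP citrate lyase (Acly), which supplies cytosolic acetyl-CoA, read -0.06 and was not called (edgeR adjusted p = 0.207). Of the 50-base windows of Acaca transcripts, 30.4% also occurred in transcripts of other genes, so its counts are less certain.

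**Figure D2:**
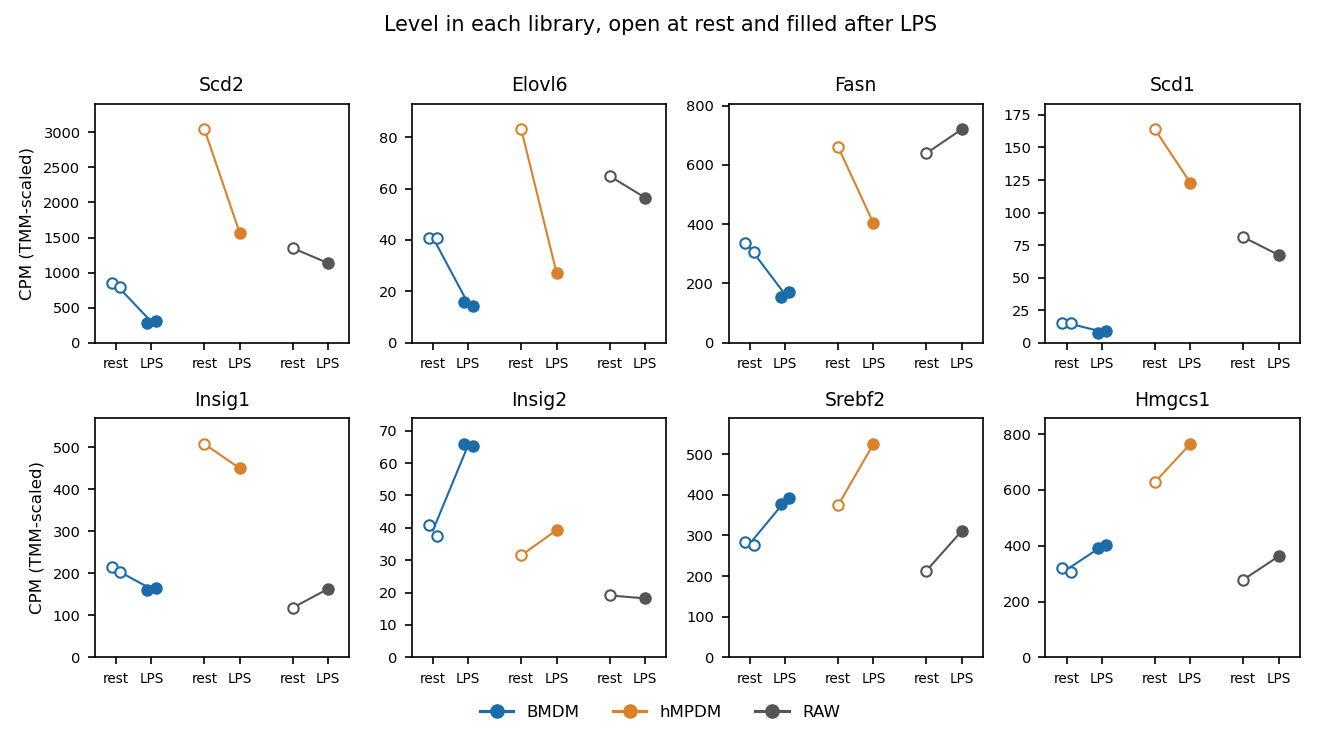
TMM-scaled CPM (vertical axes, each from 0) of 8 members in every library, open circles at rest and filled after LPS, with lines joining the means of each cell type. Scd2, Elovl6, Fasn and Scd1 were lower after LPS in BMDM and hMPDM, Fasn was higher in RAW (639 and 720 CPM), and Insig1 and Insig2 moved in opposite directions in BMDM.

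Among the 8 mevalonate and isoprenoid steps, 2 rose, 3 fell and 3 were not called in BMDM, with a median of -0.04. Hmgcs1 (ENSMUSG00000093930.1, chr13:119690462-119708086), the cytosolic synthase that commits acetyl-CoA units to the pathway, read 321 and 307 CPM before and 392 and 404 CPM after LPS in BMDM, 628 and then 765 CPM in hMPDM, and 278 and then 362 CPM in RAW. Under TMM it was higher after LPS in every type. In BMDM the change was 0.35 (SE 0.0381, edgeR adjusted p = 3.37e-09), but -0.02 under scaling by library size (adjusted p = 0.642). In hMPDM its log2 ratio of 0.29 was smaller in size than the shift of -0.39 by library size. Idi1, the isomerase of isopentenyl diphosphate, read 1.79 and 2.33 CPM before and 2.87 and 3.80 CPM after LPS in BMDM, 5.77 and then 7.42 CPM in hMPDM, and 4.71 and then 4.28 CPM in RAW. The levels were low and the BMDM libraries of a state differed widely. Its call (0.73, SE 0.248, edgeR adjusted p = 0.0114) was lost without BMDM rest replicate 1 (0.57, adjusted p = 0.0662), without BMDM LPS replicate 2 (0.46, adjusted p = 0.325) and under library size (0.37, adjusted p = 0.172). The thiolase gene Acat2 (-0.68), the decarboxylase gene Mvd (-0.40) and the kinase gene Mvk (-0.22) fell. The fall of Mvk was not called without BMDM rest replicate 1 (adjusted p = 0.122) or without BMDM LPS replicate 2 (adjusted p = 0.112). The squalene synthase gene Fdft1 read -0.14 (edgeR adjusted p = 0.0511), the kinase gene Pmvk 0.09 and the farnesyl diphosphate synthase gene Fdps 0.06. Pmvk and Fdps were negative under library size, at -0.27 and -0.31. Windows of 50 bases shared with other transcripts made up 39.1% of Acat2, 26.5% of Fdft1, 26.2% of Fdps and 25.3% of Idi1, among them a paralog, overlapping genes and predicted genes, so these counts are less certain. Exons of Fdft1 (18.3% of bases), Scap (13.2%), Hmgcs1 (12.1%) and Idi1 (9.22%) also overlap a gene on the other strand, and whether counting used strand is not stated.

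Of the 10 sterol steps, 7 fell in BMDM and the other 3 were not called, with a median of -0.21. Dhcr7, the reductase of the last step to cholesterol in the Kandutsch-Russell branch, read 83.9 and 81.8 CPM before and 47.9 and 51.0 CPM after LPS in BMDM, 148 and then 103 CPM in hMPDM, and 99.4 and then 94.2 CPM in RAW. All LPS libraries were below rest, by least in RAW, where the 95% counting interval of the ratio, 0.824 to 1.09, spanned 1. In BMDM Dhcr7 changed by -0.73 (SE 0.0583, edgeR adjusted p = 3.36e-12). The lanosterol synthase gene Lss changed by -0.63 and the squalene epoxidase gene Sqle, a rate-limiting step after mevalonate, by -0.59. Smaller falls were read for the sterone reductase gene Hsd17b7 (-0.35), the lanosterol demethylase gene Cyp51 (-0.22), the methyl sterol oxidase gene Msmo1 (-0.20) and the sterol desaturase gene Sc5d (-0.12). With the coefficient of variation fixed at 10% the last 3 were not called (adjusted p = 0.234, 0.286 and 0.559). Sc5d was also lost without any 1 of the 4 BMDM libraries (adjusted p from 0.0751 to 0.144). DESeq2 did not call Sc5d (adjusted p = 0.459), nor Mvk (adjusted p = 0.395) or Idi1 (adjusted p = 0.387) among the mevalonate steps. Nsdhl (-0.12), Tm7sf2 (-0.02) and the sterol isomerase gene Ebp (0.01) were not called, and under library size Ebp read -0.36.

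The 6 genes of SREBP control and sterol transport divided, with 3 rising and 2 falling in BMDM and a median of 0.22. Insig2 (ENSMUSG00000003721.10, chr1:121304353-121332589) read 41.0 and 37.4 CPM before and 65.9 and 65.4 CPM after LPS in BMDM, 31.5 and then 39.3 CPM in hMPDM, and 19.1 and then 18.2 CPM in RAW. It was highest in BMDM after LPS and lowest in RAW, and its BMDM change was 0.75 (SE 0.0642, edgeR adjusted p = 1.73e-11). Its partner Insig1 (ENSMUSG00000045294.10, chr5:28071363-28078662), itself a target of SREBP, read 214 and 202 CPM before and 160 and 165 CPM after LPS in BMDM, 508 and then 450 CPM in hMPDM, and 118 and then 163 CPM in RAW. It fell in BMDM (-0.35, SE 0.0437, edgeR adjusted p = 4.04e-08), and the RAW value lay higher after LPS. The share of Insig2 among reads of both INSIG genes was 16.1% and 15.6% in resting BMDM and 29.1% and 28.4% after LPS (95% Clopper-Pearson intervals, which span 14.6% to 17.2% at rest and 26.8% to 31.5% after LPS). In hMPDM that share went from 5.84% (95% interval 5.36% to 6.34%) to 8.03% (6.94% to 9.23%). In RAW it read 14.0% (11.1% to 17.2%) and then 10.0% (8.09% to 12.2%), from 73 and 85 Insig2 reads, and these intervals overlap.

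Scap (ENSMUSG00000032485.10, chr9:110333293-110384935), the escort of SREBP, read 53.0 and 54.8 CPM before and 80.6 and 85.9 CPM after LPS in BMDM, 47.7 and then 66.8 CPM in hMPDM, and 44.7 and then 54.1 CPM in RAW. Every LPS library was above its resting counterpart, although in RAW the 95% counting interval of the ratio, 0.993 to 1.48, spanned 1. The BMDM change was 0.64 (SE 0.0565, edgeR adjusted p = 3.75e-11). Srebf2 (ENSMUSG00000022463.7, chr15:82147266-82205376) read 283 and 276 CPM before and 377 and 392 CPM after LPS in BMDM, 374 and then 525 CPM in hMPDM, and 213 and then 311 CPM in RAW, higher after LPS in every type. It rose in BMDM by 0.46 (SE 0.0378, edgeR adjusted p = 5.18e-12). Insig2, Scap and Srebf2 were the 3 members still called higher under library size, at 0.38, 0.27 and 0.10. Srebf1 (ENSMUSG00000020538.11, chr11:60199089-60222581) read 105 and 106 CPM before and 96.1 and 110 CPM after LPS in BMDM, 163 and then 130 CPM in hMPDM, and 143 and then 127 CPM in RAW. Its BMDM groups overlapped and it was not called (-0.01, SE 0.0530, edgeR adjusted p = 0.828), although library size gave -0.38 (adjusted p = 4.20e-08). Without BMDM LPS replicate 1 it read 0.06. The share of Srebf1 among reads of both SREBP genes was 27.1% and 27.8% in resting BMDM and 20.3% and 21.9% after LPS, and it went from 30.4% to 19.8% in hMPDM and from 40.2% to 29.0% in RAW. Stard4, a cytosolic sterol carrier, fell in BMDM by 0.40 on the log2 scale.

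**Figure D3:**
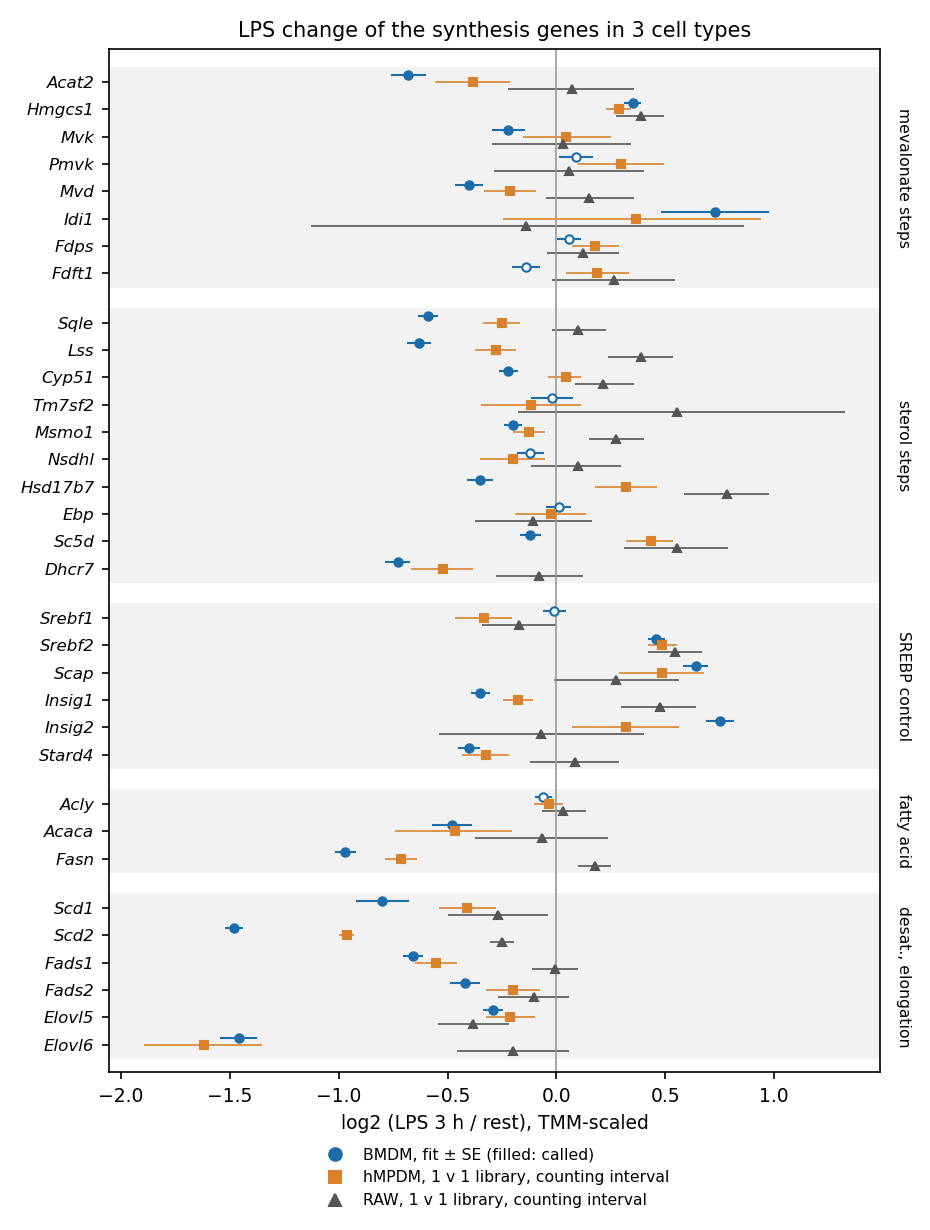
Log2 ratio of LPS to rest (horizontal axis) for the 33 members by role. BMDM points are fitted changes with their SE, filled where called, and hMPDM and RAW points are ratios of 1 library to 1 library with 95% intervals of the count ratio, which cover counting error only. All 6 desaturases and elongases lie left of 0 in BMDM and hMPDM, and the sterol steps lie mostly left in BMDM (median -0.21) and mostly right in RAW (median 0.25).

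In hMPDM and RAW the LPS response sets a single library against another. It is given as a ratio and was not tested on its own, although the differences from BMDM given further on use these libraries with the spread taken from BMDM. A rule of size counted genes that differed by at least 2-fold with at least 5 CPM in the higher library. In hMPDM it counted 1 member, Elovl6, as lower (log2 -1.61, 1383 and then 124 reads), where 5.61% of all genes were counted lower and 7.98% higher. In RAW it counted no member, where 0.923% and 2.07% of all genes were counted. The same rule between BMDM replicates counted 0.00803% of genes at rest and 0.0401% after LPS. Median log2 ratios of the members were -0.18 in hMPDM and 0.08 in RAW, against -0.01 and 0.00 over all genes. By the 95% interval of the count ratio, a rule chosen after the data were seen, 18 members lay below 1 and 9 above in hMPDM, and 4 below and 9 above in RAW. These counts hold under TMM. Library size scaling moved all hMPDM log2 ratios by -0.39 and all RAW ratios by -0.10. In hMPDM the rises of Fdps (0.18), Fdft1 (0.19), Hmgcs1 and Pmvk (both 0.29), Hsd17b7 and Insig2 (both 0.32) were smaller than that shift. Those of Sc5d (0.43), Scap and Srebf2 were larger. In hMPDM all 6 desaturases and elongases were below 1, led by Elovl6 and by Scd2 (-0.96, from 50668 to 7155 reads), while Srebf2 (0.49) and Scap (0.48) were the highest. After subtraction of the BMDM share Scd2 read -0.83, Elovl6 -1.54, Srebf2 0.53 and Scap 0.44. Other members moved further in proportion, among them Scd1 from -0.41 to -0.26, Fads2 from -0.20 to -0.08, Insig1 from -0.18 to -0.07 and Insig2 from 0.32 to 0.19. Likewise Mvd went from -0.21 to -0.11, Sqle from -0.25 to -0.16, Lss from -0.28 to -0.17 and Msmo1 from -0.13 to -0.05. The hMPDM shares of paired genes and the Ch25h level are given without subtraction. In RAW the 5 sterol genes above 1 were Hsd17b7 (0.78), Sc5d (0.55), Lss (0.38), Msmo1 (0.27) and Cyp51 (0.22), and those below 1 were Elovl5 (-0.38), Scd1 (-0.27), Scd2 (-0.25) and Srebf1 (-0.17). RAW was the shallowest pair, and the interval of Idi1, with 18 and 20 reads, ran from 0.457 to 1.82.

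A single LPS term over all 3 types, with cell type as covariate, called 4 members higher and 11 lower, where 25.0% and 24.2% of all genes were called. The median was -0.10, against -0.02 over all genes. All 6 desaturases and elongases were among those called lower, with Elovl6 at -1.18 (SE 0.225, edgeR adjusted p = 0.00526) and Scd2 at -1.05 (SE 0.203, edgeR adjusted p = 0.00551). Fasn read -0.63 (edgeR adjusted p = 0.0313), although in RAW its ratio was 1.13 (95% counting interval 1.07 to 1.19). BMDM gave 4 of the 8 libraries, so these calls are no separate test of the BMDM falls. The term assumes 1 response for all types, whereas 5 of the 6 desaturases and elongases responded differently in RAW and BMDM. The rises were Scap (0.52, edgeR adjusted p = 0.00179), Insig2 (0.51, edgeR adjusted p = 0.0159), Srebf2 (0.49, edgeR adjusted p = 0.000625) and Hmgcs1 (0.34, edgeR adjusted p = 0.00239). Insig1 (-0.11) and Srebf1 (-0.14) were not called. Under library size 1 member was higher and 21 were lower, with Scap (0.20) as the rise, while Insig2 (0.17), Srebf2 (0.18) and Hmgcs1 (0.03) were no longer called. Leaving out 1 BMDM or hMPDM library in turn gave 5 to 7 members lower and ended the call of Fasn (adjusted p from 0.0834 to 0.104), and leaving out either RAW library gave 17. Insig2 was lost without any 1 of the 4 BMDM libraries (adjusted p from 0.0676 to 0.0730), as was Fads2 (adjusted p from 0.0538 to 0.0623). Fads1 was lost without either BMDM LPS library or either hMPDM library (adjusted p from 0.0503 to 0.0563). Acat2 (adjusted p from 0.0689 to 0.0908) and Stard4 (adjusted p from 0.116 to 0.143) were lost without any 1 BMDM or hMPDM library, and Acaca without BMDM LPS replicate 2 or either hMPDM library (adjusted p from 0.0531 to 0.0570). With the BMDM share subtracted Stard4 was not called (adjusted p = 0.0586).

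At rest hMPDM carried more transcript of nearly every member than BMDM. Of the 33, 31 were higher and 2 lower, where 19.0% and 19.2% of all genes were called, and the median log2 difference was 0.94, against -0.00 over all genes. Past the test against 2-fold lay 9 members, all higher, and 1.32% and 2.76% of all genes passed it as higher and lower. The 9 comprised Acat2, Mvd, Lss, Cyp51, Tm7sf2, Insig1, Scd1, Scd2 and Fads2, drawn from 4 of the 5 role groups. The level summed over all members was 2.22 times that of BMDM, and over the desaturases and elongases 3.19 times, a sum that was mostly Scd2. Scd1 led at 164 CPM against 15.3 and 14.9 CPM, a difference of 3.44 (SE 0.0671, edgeR adjusted p = 1.19e-25), followed by Scd2 (1.88, SE 0.0427, edgeR adjusted p = 3.26e-24). Fads2, the delta-6 desaturase gene, read 49.0 and 48.0 CPM before and 35.8 and 36.6 CPM after LPS in BMDM, 163 and then 142 CPM in hMPDM, and 155 and then 144 CPM in RAW. The hMPDM and RAW levels were all above the BMDM levels, and the resting hMPDM difference was 1.75 (SE 0.0543, edgeR adjusted p = 3.19e-21). The 2 lower members were both of SREBP control, Insig2 (-0.31, edgeR adjusted p = 0.00299) and Scap (-0.18, edgeR adjusted p = 0.0445), while Insig1 was higher by 1.29, Srebf1 by 0.63 and Srebf2 by 0.42. DESeq2 called neither Insig2 (adjusted p = 0.567) nor Scap (adjusted p = 0.847), and Scap was also lost without BMDM rest replicate 1 (-0.20, adjusted p = 0.0580) or replicate 2 (-0.15, adjusted p = 0.204). The spread of the single resting hMPDM library was taken to equal that within the BMDM pairs. With the coefficient of variation fixed at 10%, 27 members were higher and 4 passed the 2-fold test.

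**Figure D4:**
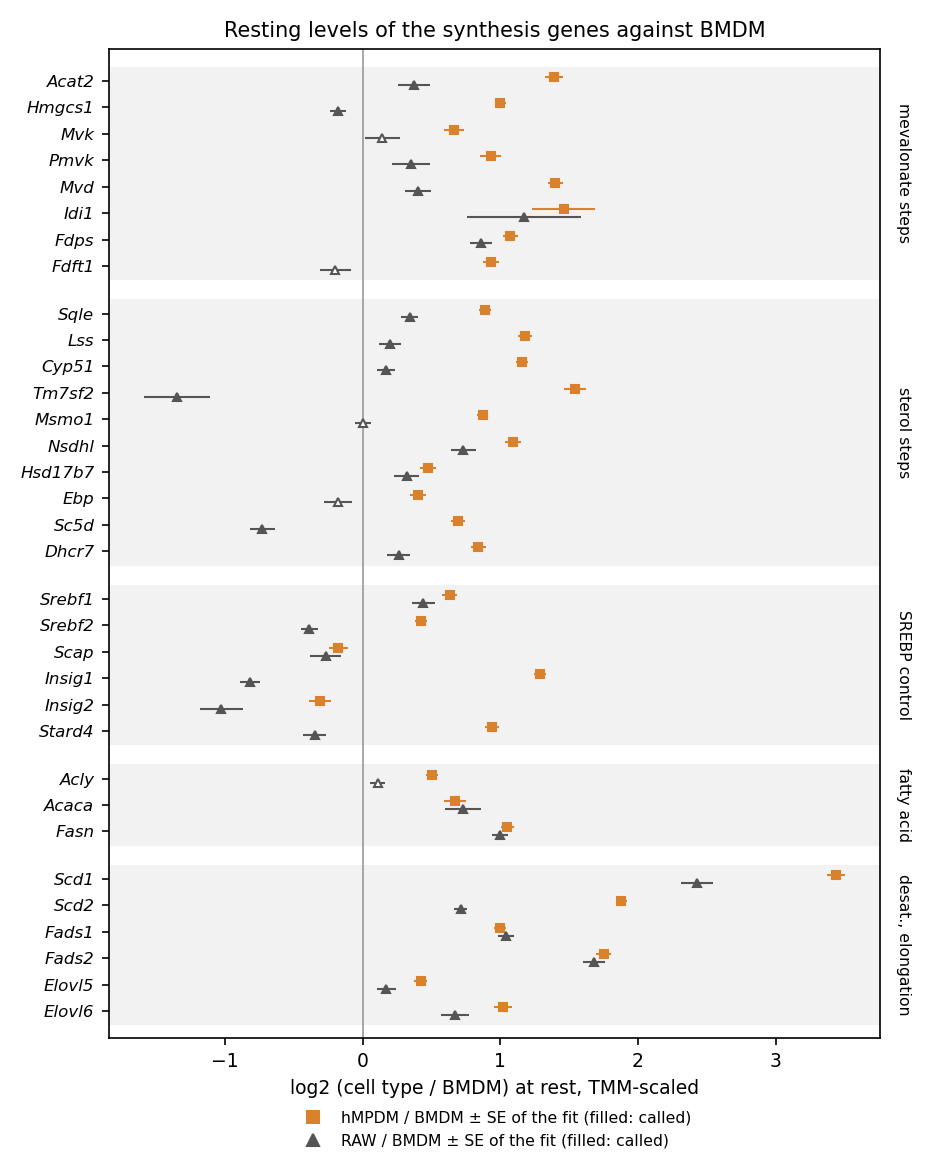
Log2 difference of resting hMPDM and resting RAW from resting BMDM (horizontal axis) for the 33 members by role, with the SE of the fit, filled where called. In hMPDM 31 members lie right of 0, up to Scd1 at 3.44, and in RAW the desaturases and elongases lie right while 5 of the 6 genes of SREBP control lie left.

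RAW at rest differed from BMDM by role. Of the 33 members 20 were higher and 8 lower, where 27.1% and 31.3% of all genes were called, with a median of 0.26 against -0.06 over all genes. All 6 desaturases and elongases were higher, with a median of 0.87, whereas 5 of the 6 genes of SREBP control were lower. The call of Elovl5 (0.17, edgeR adjusted p = 0.0353) was lost without BMDM rest replicate 1 (adjusted p = 0.0858), without a filter (adjusted p = 0.161), with the replicate block (adjusted p = 0.0555), under DESeq2 (adjusted p = 0.187) and with the coefficient of variation fixed at 10% (adjusted p = 0.484). Scd1 (2.43, SE 0.115, edgeR adjusted p = 4.34e-17) and Fads2 (1.68, SE 0.0786, edgeR adjusted p = 3.06e-17) passed the test against 2-fold, which 5.72% of all genes passed as higher and 8.91% as lower. Idi1 was higher by 1.17 (SE 0.415, edgeR adjusted p = 0.0170), from 18 reads in RAW, and DESeq2 did not call it (adjusted p = 0.186). Fasn (1.00) and Fads1 (1.04) were also higher. Tm7sf2, a sterol reductase whose step the lamin B receptor can also carry out, read 17.0 and 16.5 CPM at rest and 16.5 CPM in both libraries after LPS in BMDM, 48.7 and then 44.9 CPM in hMPDM, and 6.54 and then 9.63 CPM in RAW. RAW was lowest and hMPDM highest in both states, and the resting RAW difference was -1.35 (SE 0.240, edgeR adjusted p = 1.87e-05). Insig2 was lower by 1.03 (log2 -1.03, SE 0.157, edgeR adjusted p = 1.84e-06) and Insig1 read -0.82 (SE 0.0756, edgeR adjusted p = 1.60e-10). Srebf2 (-0.39) and Scap (-0.27) were lower and Srebf1 (0.44) was higher. Library size scaling moved all RAW values by 0.20, gave 23 members higher and 5 lower, turned Hmgcs1 from -0.18 to 0.02 and ended the calls of Scap and Stard4. Scap was also lost without BMDM rest replicate 2 (-0.23, adjusted p = 0.111) and Hmgcs1 without BMDM rest replicate 1 (-0.14, adjusted p = 0.0776), and DESeq2 called 12 higher and 5 lower.

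The balance of the 2 stearoyl-CoA desaturase genes differed between the cell types. Scd1 made up 1.76% and 1.83% of reads of the pair in resting BMDM, 5.10% in hMPDM (95% interval 4.92% to 5.29%) and 5.68% in RAW (5.08% to 6.32%). After LPS the share was 2.58% and 2.93% in BMDM, 7.32% in hMPDM and 5.61% in RAW. Only 4.56% of Scd1 windows and 3.97% of Scd2 windows were shared with other transcripts, among them each other.

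The LPS response itself was compared between cell types, with hMPDM and RAW each set against the same BMDM libraries. In hMPDM 7 members changed more positively than in BMDM and 1 more negatively, where 3.96% and 3.89% of all genes did, and the median difference was 0.12 against -0.01. Hsd17b7 read 66.7 and 67.1 CPM before and 50.3 and 53.5 CPM after LPS in BMDM, 92.4 and then 115 CPM in hMPDM, and 83.5 and then 143 CPM in RAW. Under TMM it was lower after LPS in BMDM and higher in the other types. In hMPDM its log2 ratio of 0.32 was smaller in size than the shift of -0.39 by library size. The difference of its response was 0.67 in hMPDM (SE 0.102, edgeR adjusted p = 2.25e-05) and 1.13 in RAW (SE 0.117, edgeR adjusted p = 6.17e-09). Sc5d read 99.5 and 100 CPM before and 91.6 and 92.2 CPM after LPS in BMDM, 162 and then 218 CPM in hMPDM, and 60.2 and then 88.2 CPM in RAW, with a difference of 0.55 in hMPDM (SE 0.0823, edgeR adjusted p = 2.08e-05). It too moved up with LPS outside BMDM. Scd2, which was lower after LPS in both types, differed by 0.51 (SE 0.0677, edgeR adjusted p = 2.91e-06), and Srebf1 by -0.32 (SE 0.0975, edgeR adjusted p = 0.0383). After subtraction of the BMDM share 12 members were higher and 1 lower: Hsd17b7 read 0.76, Sc5d 0.64 and Scd2 0.64, while Srebf1 was lost (-0.29, adjusted p = 0.0696). Srebf1 was also lost without BMDM LPS replicate 2 (-0.20, adjusted p = 0.271). DESeq2 called 2 members, Hsd17b7 and Scd2, both higher, and with the coefficient of variation fixed at 10% a likelihood ratio test in edgeR called 0 higher and 0 lower, with 3 higher and 0 lower at an unadjusted p under 0.05.

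The RAW response was also set against that of BMDM. For genes that fell in BMDM a positive difference is partly built in, because the same BMDM libraries enter it. By the rule of size 2.07% of all genes were counted higher and 0.923% lower in RAW, against 7.98% and 5.61% in hMPDM. Whether the members differ from other genes that fell in BMDM was not tested. The RAW response was more positive than that of BMDM for 17 members and more negative for 1, where 10.0% and 12.7% of all genes were called. The median difference was 0.44 against 0.00. By role these were 7 of the 10 sterol steps, 5 of the 6 desaturases and elongases, 2 mevalonate steps, 2 genes of SREBP control and Fasn. Elovl5, the sixth desaturase or elongase, was lower after LPS in both types and its response was not called different (-0.10, edgeR adjusted p = 0.573). Elovl6 differed by 1.26 (SE 0.158, edgeR adjusted p = 2.51e-07), Scd2 by 1.23 (SE 0.0715, edgeR adjusted p = 3.35e-14) and Fasn by 1.14 (SE 0.0836, edgeR adjusted p = 6.04e-12). Scd2 alone passed the test against 2-fold, which 0.891% of all genes passed as higher and 2.95% as lower, and it missed that test without BMDM rest replicate 1. Insig1 differed by 0.82 and Insig2 by -0.82 (SE 0.240, edgeR adjusted p = 0.0119), and the responses of Srebf1 (-0.16), Srebf2 (0.08) and Scap (-0.36) were not called different. Fads2 (0.31, edgeR adjusted p = 0.0408) was lost without any 1 of the 4 BMDM libraries (adjusted p from 0.0570 to 0.0761), and Scd1 (0.53) without BMDM LPS replicate 1 (0.42, adjusted p = 0.0991). Under library size, which moved this comparison by 0.27, 25 members were higher and the call of Insig2 was lost (-0.55, adjusted p = 0.0766). With the coefficient of variation fixed at 10%, 6 members stayed above the threshold as higher and Insig2 was not called (adjusted p = 0.135).

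A further list of 20 genes of the same pathways, among them the proteases that release SREBP, was read beside the module. In BMDM 6 of the 19 tested rose and 8 fell after LPS, with a median of -0.08, where 31.7% of all genes rose and 31.1% fell, so the count that rose is near the background. Lpin1, a phosphatidate phosphatase, read 37.5 and 36.2 CPM before and 7.86 and 7.91 CPM after LPS, and changed by -2.22 (SE 0.102, edgeR adjusted p = 5.53e-18). The reductase gene Por, which passes electrons to Cyp51 and squalene epoxidase, went from 579 and 593 to 294 and 293 CPM (edgeR adjusted p = 2.15e-20), and the ubiquitin ligase gene Rnf139 changed by 0.91 on the log2 scale. Of 13 genes of oxysterol formation, LXR signalling, efflux and storage, 8 rose and 3 fell, with a median of 0.22, against the same 31.7% and 31.1% of all genes. LXR is a nuclear receptor that oxysterols activate. Ch25h, which makes an oxysterol that binds INSIG and holds SREBP back, read 2.03 and 1.89 CPM before and 74.4 and 64.0 CPM after LPS in BMDM, and 1.32 and then 31.9 CPM in hMPDM. It had 0 reads in both RAW libraries, which allows up to 0.963 and 0.736 CPM by library total, without TMM scaling. The BMDM change was 5.11 (edgeR adjusted p = 1.39e-25). The LXR gene Nr1h3 (1.35) rose in BMDM, as did Abca1 (0.57) and Abcg1 (0.51), which export cholesterol. Whether LXR targets rose as a set was not tested. Soat1, which esterifies cholesterol for storage, went to 0.499 times its resting level. Of the same list, Mylip (-0.17, edgeR adjusted p = 0.0184) and Npc1 (-0.42) also fell, and Lpcat3 read -0.10 and was not called. The shift of -0.37 under library size applies to these values too. In RAW Abcg1 was lower after LPS (106 and then 61.8 CPM), and its response differed from that of BMDM by -1.30 (SE 0.130, edgeR adjusted p = 3.66e-09).

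**Figure D5:**
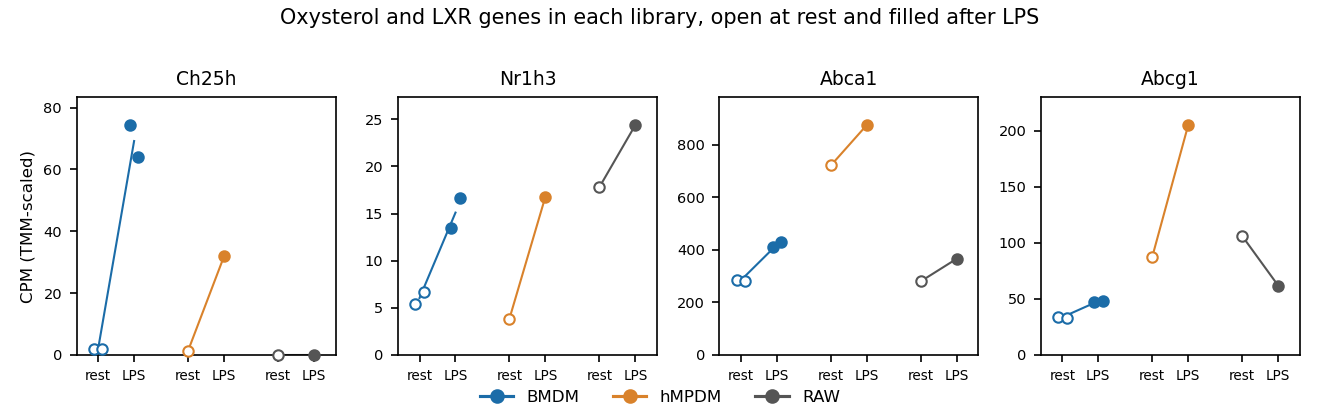
TMM-scaled CPM (vertical axes, each from 0) of 4 genes of oxysterol formation and LXR signalling in every library, open circles at rest and filled after LPS, with lines joining the means of each cell type. Ch25h went from 2.03 and 1.89 to 74.4 and 64.0 CPM in BMDM and had 0 reads in RAW, while Abcg1 rose in BMDM and was lower after LPS in RAW.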

How the data were processed

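Single-end reads of 50 bases from polyadenylated RNA were counted by the authors, and the deposited table holds raw counts per gene with no normalization, per the file headers in the layout of featureCounts. The mm10 build and the tools STAR, featureCounts, bedtools, SAMtools and cutadapt are listed in the submitters' processing notes. Neither versions nor the strand setting of the counting are stated in them, although the kit was a stranded KAPA kit per the labels' protocols. Of 10 value columns, 8 matched a sample by name and 2 were not used. Symbols matched 42462 of the gene identifiers and 884 had none.

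Counts were analysed in edgeR 4.0.16 (R 4.3.3) with filterByExpr and TMM, which left 12461 genes, in a quasi-likelihood fit over all 8 libraries with 1 coefficient per group. It had 2 residual degrees of freedom, both from BMDM, and a common coefficient of variation of 2.27%. The additive fit of LPS and cell type had 4. All p-values were adjusted over all genes tested by Benjamini-Hochberg, called under 0.05, with a second test against a 2-fold change. An SE is the log2 value divided by the square root of F and is not a replicate SE. Single library ratios used a prior count of 2. Intervals (95%) and floors (3 counts) express counting error alone, because PCR copies cannot be told from separate molecules. The test was tried on simulated data in which every library was given the same spread. Such data cannot check the spread assumed for the single hMPDM and RAW libraries.

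The members, lists, rules and the genes given in full were chosen with earlier results of these data known. Values in every library are given for the 5 largest rises and falls called in BMDM after LPS, the 3 largest each way in other tested comparisons, and Srebf1, Srebf2, Insig1, Insig2 and Scap. DESeq2 1.42.0, RLE and library size scaling, no filter, a replicate block, a coefficient of variation fixed at 10%, BMDM libraries only, each library left out and the subtracted BMDM share were alternatives. The counts by interval and without members sharing reads were added after seeing the data.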

Additional observations from a re-analysis of the deposited data

Results flagged for a closer look

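The LPS response of 8 members differed between hMPDM and BMDM by the test of the difference itself. It was more positive in hMPDM for Hsd17b7 (0.67), Sc5d (0.55), Scd2 (0.51), Lss (0.35), Sqle (0.34), Fdft1 (0.33) and Cyp51 (0.25), and more negative for Srebf1 (-0.32), all on the log2 scale. The weakest of these calls was Fdft1 (edgeR adjusted p = 0.0448). It was lost under library size scaling, no filter, the replicate block, DESeq2 and the fixed coefficient of variation, and without BMDM replicate 1 of either state. Cyp51 was lost under the replicate block, DESeq2 and the fixed coefficient of variation, and without BMDM rest replicate 1 (0.24). Insig2 was not called in this comparison, but was called lower under library size scaling (-0.45) and after subtraction of the BMDM share (-0.55).

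Between RAW and BMDM the response of 18 members differed. It was more positive in RAW for Elovl6 (1.26), Scd2 (1.23), Fasn (1.14), Hsd17b7 (1.13), Lss (1.01), Insig1 (0.82), Acat2 (0.75), Sqle (0.69), Sc5d (0.67), Fads1 (0.66) and Dhcr7 (0.65). Smaller positive differences were read for Mvd (0.55), Scd1 (0.53), Stard4 (0.49), Msmo1 (0.47), Cyp51 (0.44) and Fads2 (0.31). Insig2 was the exception, at -0.82. Hsd17b7, Sc5d, Scd2, Lss, Sqle and Cyp51 were called in both comparisons, which share the BMDM libraries.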

How the results depend on the processing

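Limits of these results lie in the single hMPDM and RAW libraries, whose spread is taken from BMDM pairs with 2 residual degrees of freedom, in the depth of RAW (3116434 counts at rest), and in the scaling. The cause of each change below was not tested. Under library size scaling the BMDM LPS response had 3 members higher, the common response 1 higher and 21 lower, resting hMPDM 1 lower, resting RAW 5 lower and 4 higher past 2-fold, the response difference of hMPDM 2 lower, that of RAW 0 lower (1 at an unadjusted p under 0.05 in edgeR) and 5 higher past 2-fold, and the hMPDM ratio 3 lower. It turned the BMDM responses of Hmgcs1 (-0.02), Pmvk (-0.27), Fdps (-0.31) and Ebp (-0.36), the resting RAW values of Hmgcs1 (0.02) and Ebp (0.01), and the RAW difference of Srebf1 (0.11). Without a filter Ebp read -0.02 in BMDM and Msmo1 -0.03 in resting RAW. Resting hMPDM had 1 member lower with RLE, with no filter and with the replicate block.

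DESeq2 gave 0 lower in resting hMPDM, 12 higher and 5 lower in resting RAW, and 2 higher and 0 lower in the hMPDM difference and 0 lower in the RAW difference (unadjusted, 0, 0 and 1 lower). With the coefficient of variation fixed at 10% edgeR gave 0 lower and 4 past 2-fold in resting hMPDM, 11 higher and 4 lower in resting RAW, 0 and 0 in the hMPDM difference, and 6 higher, 0 past 2-fold and 0 lower in the RAW difference (unadjusted, 1 lower). The subtracted BMDM share gave 12 higher in the hMPDM difference. A 1.5-fold rule gave 3 lower in hMPDM and 1 higher in RAW, and the interval rule 9 higher and 18 lower in hMPDM and 9 higher and 4 lower in RAW.

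Leaving out 1 library gave 5 to 17 members lower in the common response, 1 to 2 lower in resting hMPDM, 0 to 2 lower in the hMPDM difference, and 1 to 2 lower and 0 to 2 higher past 2-fold in the RAW difference. Without BMDM LPS replicate 1 Srebf1 read 0.06 in BMDM (-0.14 without replicate 2) and Srebf2 -0.01 in the hMPDM difference.

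Whether BMDM libraries of the same replicate number belong together is not stated in the labels. The deviations of same-numbered libraries correlated at -0.0346 across genes. This cannot settle the question, because counting noise can hide a shared part. With the replicate block BMDM had 5 members higher and 19 lower after LPS, and of 149 member values 140 kept direction and side of the threshold and 9 lost their call. RLE kept 146, no filter 140, library size 122, DESeq2 118 and the fixed coefficient of variation 105 of the 149, and BMDM libraries only kept all 33. Without the 5 members sharing over 20% of windows with other transcripts BMDM had 4 higher and 18 lower.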
